A study of Mus musculus with 1298 samples.

Results

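The 7 genes described here are the Six-family and Eya-family members named for this account, Six2, Six4, Six5, Eya1, Eya2, Eya3 and Eya4, taken by symbol from the count tables of the Pax7 lineage. They are 7 of 26724 distinct genes listed in the single-cell and bulk tables, and all 7 are among the 15147 genes listed in both single-cell tables. Cells came from Pax7-CreER:R26R-stop-EYFP mouse embryos, in which tamoxifen given to the mother at E9.5 turns on YFP in cells that express Pax7 at that time and in their progeny. All single cells therefore carry the same alleles and the same tamoxifen treatment, were driven by the same Pax7 Cre, and differ in the day of harvest, which was E12.5, E14.5 or E16.5. Embryos of a day were pooled after the head, limbs and viscera were taken off, and YFP+ cells were sorted and measured on the 10x droplet platform or with Smart-seq2, a plate method that reads whole transcripts. Sorted bulk cells of the Pdgfra-/Cd36+ gate at E16.5 were also used, as technical duplicates of the same line.

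Six-family proteins are homeodomain factors that bind DNA, and the letters TCAGGTTTC of the MEF3 element are a known binding sequence in promoters of muscle genes. Eya proteins carry no DNA-binding domain of their own, are brought to DNA by Six-family proteins as coactivators, and also have phosphatase activity. In the somite both families act with Pax3 and Pax7 and with the Dach cofactors upstream of the myogenic regulatory factors Myf5, Myod1, Myog and Myf6.

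In the mouse build GRCm38 with GENCODE M21, Six2 lies on chromosome 17 from 85684277 to 85688274, Six4 on chromosome 12 from 73099609 to 73113456 and Six5 on chromosome 7 from 19094594 to 19098549. Eya1 lies on chromosome 1 from 14168954 to 14310235, Eya2 on chromosome 2 from 165595032 to 165771727, Eya3 on chromosome 4 from 132638987 to 132724765 and Eya4 on chromosome 10 from 23102963 to 23350786. No member overlaps another protein-coding gene. Eya1 and Eya2 each overlap 2 noncoding genes, 1 of them antisense for Eya1 and both for Eya2, and Eya4 overlaps 1. Smart-seq2 does not mark the strand, so reads from any exon sequence shared with an antisense gene could not be told apart there. Overlap was taken over whole gene spans, introns included, and shared exons were not looked for.

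The promoter letters are shown because Six-family proteins read them and because Myog is a known muscle target of them. It is on a list of 22 context genes, made of 2 other family genes, cofactors, Pax partners, myogenic regulatory factors, the fast muscle program and other partners or targets of the 2 families. RefSeq promoters of GRCm38.p6, each 250 bases before to 50 bases after a transcription start, were searched for TCAGGTTTC on both strands. It was found in 0.429% of 32851 promoters. Promoters were given for 5 of the 7 members (not Eya1 or Eya2) and 15 of the 22 context genes, and Six4 and Myog were the 1 member and the 1 context gene with the letters. The stretches around them follow with the element in capitals, Myog from chr1:134289860-134289968 on the plus strand and Six4 from chr12:73113326-73113354 on the minus strand, where the element reads in the opposite direction.
Myog: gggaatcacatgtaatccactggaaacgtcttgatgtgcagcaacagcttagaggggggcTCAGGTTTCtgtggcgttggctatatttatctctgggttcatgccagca
Six4: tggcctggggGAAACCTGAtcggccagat
In Myog the element lies 76 to 84 bases before the start and outside any annotated feature, and in Six4 it lies 91 to 99 bases before a RefSeq start, within an exon and UTR of an annotated transcript. A match of letters does not show that a factor binds there.

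Of 3916 deposited cells 3852 were kept, 2921 from 10x and 931 from Smart-seq2. A pool is 1 platform and 1 day, and there are 6. The median 10x cell held 2185 UMIs (unique molecular identifiers, 1 per captured transcript) on the earliest day, 5930 on the middle day and 1607.5 on the latest, and the Smart-seq2 medians were 393416, 769833 and 829590 expected counts. Cells were clustered without the members and without the context genes, and clusters were named from marker lists. Of the kept cells 10.6% were EP-like (early progenitor), 19.1% LP-like (late progenitor), 18.1% EM-like (early muscle), 5.997% LM-like (late muscle), 15.6% DF-like (dermal fibroblast), 4.52% BA-like (brown adipocyte), 18.6% N-like (neuron), 5.48% NP-like (neural progenitor or glia) and 1.48% PE-like (pericyte). The 8 EM markers (Msc, Cdh15 and others) summed to 1236 CPM (counts scaled to a total of 1000000) in EM-like 10x cells, 270 in LP-like and 77.4 in EP-like, while the 9 LM markers (Actc1, Ttn and others) summed to 12481 CPM in LM-like and 1028 in EM-like cells. The EM list was higher still in LM-like cells, at 1762 CPM on 10x. On Smart-seq2 it summed to 3495 CPM in LM-like and 2930 CPM in EM-like cells, so it does not set early muscle apart from late muscle. The progenitor lists did not set their classes apart from fibroblasts: the EP list summed to 664 CPM in EP-like and 688 in DF-like 10x cells, and the LP list to 9880 in LP-like and 9623 in DF-like 10x cells. EM-like cells came from 2 clusters: cluster 3 held 97.5% of the EM-like 10x cells at E12.5 and 94.3% at E16.5, and cluster 4 held 99.1% of those at E14.5 and 100% of the Smart-seq2 cells at E16.5, so days and clusters are partly the same split. The EP-like cluster had the lowest marker score among the classes described, 0.49. In sums over cells, fewer expressing cells and less RNA per cell cannot be told apart. There is 1 pool of several embryos per platform and day, so p-values do not measure the spread between embryos. Where the pool was a block, they rest on how far the class difference varied over pools, which differ in platform and day. Where it was not, they rest on the spread between pools. In both cases the estimate of spread borrows from other genes. Of the 10x barcodes, 3 were found in more than 1 of the libraries.

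Six2, a homeodomain factor known for keeping kidney progenitors undifferentiated, had its highest Smart-seq2 level in early progenitors. Early muscle and late progenitors came next there, with overlapping pool ranges. EP-like cells of E12.5 held 35.1 CPM on 10x and 30.8 CPM on Smart-seq2. EM-like cells held 49.8, 17.4 and 3.56 CPM at the 3 days on 10x and 11.8, 5.12 and 4.32 CPM on Smart-seq2. The first day was thus the highest EM-like value on both platforms. LP-like cells of E14.5 and E16.5 held 12.7 and 2.62 CPM on 10x and 1.73 and 8.80 CPM on Smart-seq2. LM-like cells held 70.7, 0 and 15.1 CPM on 10x, from 8, 0 and 1 UMIs, and 0.635 and 0.352 CPM on Smart-seq2. The first of these is the highest 10x sum of the gene (95% Poisson interval 30.5 to 139.3), and the platforms placed LM-like cells differently. No UMI of Six2 was found in DF-like 10x cells, which allows at most 2.06 CPM at 3 counts, and the DF-like Smart-seq2 sums were 0.834 and 0.339 CPM. Between neighbours in the order of Smart-seq2 levels over classes, only EP-like against EM-like and N-like against NP-like did not overlap, and EP-like and NP-like have 1 pool each there and so no range of their own.

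Many Smart-seq2 values of Six2 and Six4 were small and not whole, 43.2% of the values above 0 for Six2 and 62.1% for Six4, so a share of cells above 0 says little for these genes. N-like cells were above 0 for Six2 in 44.9% and for Six4 in 56.1% of cells, at a median of 831633 counts per cell, against 249162 in EP-like and 677368 in EM-like cells. At 10 counts or more, a limit chosen after these values were seen, Six2 was found in 20.2% of EP-like, 12.4% of EM-like and 11.4% of LP-like cells, and in 0.935% of N-like and 1.37% of LM-like cells. Counts were therefore also thinned to 100000 per cell, where Six2 was found in 30.3% of EP-like cells and 8.92% of N-like cells.

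Six4, a homeodomain factor that acts in muscle precursors of the limb and trunk, was found in progenitors and in both muscle classes. EP-like cells held 31.2 CPM on 10x and 37.03 CPM on Smart-seq2. EM-like cells held 32.5, 23.1 and 14.2 CPM on 10x and 39.2, 17.4 and 16.05 CPM on Smart-seq2, again highest at E12.5 on both platforms. In LM-like cells the platforms parted. 10x gave 0, 9.70 and 15.1 CPM from 7 UMIs in all, with 34 cells at E12.5 and 33 at E16.5. Smart-seq2 gave 47.8 CPM at E14.5 and 58.2 CPM at E16.5, the highest of its class sums. Its 14 LM-like cells of E12.5 were too few for a sum. In sequencing batch 5 of E12.5, 40 EM-like cells held 64.5 CPM and 100 EP-like cells 62.4 CPM, above these LM-like sums. In batch 1 of that day 14 EP-like cells held 10.2 CPM. At 10 counts or more Six4 was found in 47.9% of LM-like, 33.1% of EP-like, 28.6% of EM-like, 12.9% of LP-like and 4.67% of N-like Smart-seq2 cells. DF-like cells were low in every pool, with 1.00 and 0 CPM on 10x and 0.926 and 3.41 CPM on Smart-seq2.

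Six5, which lies beside the Dmpk gene of myotonic dystrophy, had low levels with another order of classes. The highest Smart-seq2 level was in EP-like cells at 20.5 CPM, followed by DF-like cells at 11.0 CPM and LP-like cells at 8.55 CPM, and only the first, which is 1 pool, lay outside the pool range of the next. On 10x the EP-like level was 9.68 CPM (95% Poisson interval 3.14 to 22.6) and the DF-like level 9.62 CPM (5.26 to 16.1), which are not distinguishable at this depth. No LM-like 10x cell held a UMI, which allows at most 3.76 CPM at 3 counts, and EM-like cells held 2.78 CPM (1.12 to 5.72). The muscle, BA-like and PE-like classes had its lowest 10x levels. The BA-like level was 1.94 CPM and that of 42 PE-like cells 0, and the place of these 2 classes is not resolved at this depth. All its Smart-seq2 values were whole, and 17.2% of DF-like, 15.3% of EP-like, 15% of LP-like, 10.6% of EM-like and 0.935% of N-like cells had 10 counts or more.

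**Figure D1:**
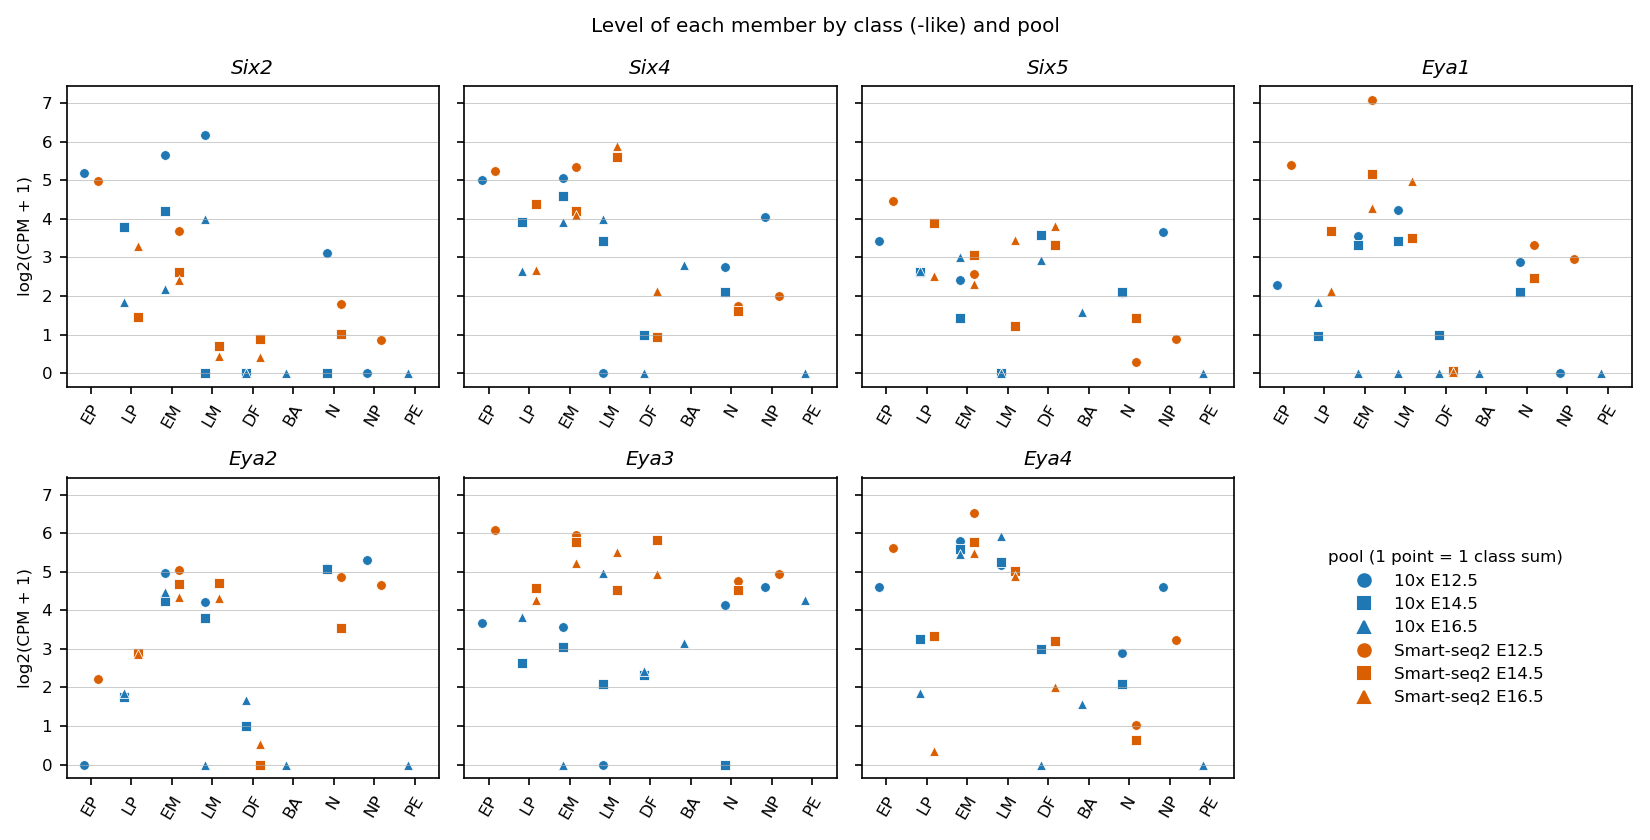
Level of each member, as log2(CPM + 1), in each class and pool of at least 20 cells. Each point is 1 sum, blue for 10x and orange for Smart-seq2, with circles for E12.5, squares for E14.5 and triangles for E16.5, and the Eya4 points of EM-like and LM-like cells lie above those of every other class except the Smart-seq2 point of EP-like cells (48.04 CPM).

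Eya1, a coactivator whose loss disturbs kidney, ear and muscle formation, was high in EM-like and EP-like cells on Smart-seq2 and low on 10x. EM-like cells held 134.99, 34.6 and 18.5 CPM at the 3 days on Smart-seq2 and 10.8, 9.00 and 0 CPM on 10x, so each later day was lower on Smart-seq2. On 10x the 0 of E16.5 cannot be set below the earlier days, because 3 UMIs would be 10.7 CPM there. EP-like cells held 41.3 CPM on Smart-seq2 and 3.90 CPM on 10x, the latter from 2 UMIs in all. LM-like cells held 17.7, 9.70 and 0 CPM at the 3 days on 10x, and 10.3 and 30.7 CPM at E14.5 and E16.5 on Smart-seq2. DF-like Smart-seq2 cells held 0.0317 and 0.0153 CPM, from 3 counts in 2 cells. At 10 counts or more Eya1 was found in 36.6% of EM-like, 22.6% of EP-like, 13.7% of LM-like, 7.01% of N-like Smart-seq2 cells, and in no DF-like cell. Most EM-like Smart-seq2 cells of E12.5 came from sequencing batch 5, where 40 cells held 102.6 CPM. That is below the 134.99 CPM of the whole sum, so the few cells of other batches raise it.

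Eya2, a coactivator also known from sensory neurons, was found in both muscle and neural classes. On 10x N-like cells held 33.1 CPM (95% Poisson interval 25.4 to 42.4), NP-like cells 31.4 CPM (15.1 to 57.7), EM-like cells 20.6 CPM (15.4 to 27.1) and LM-like cells 12.53 CPM (6.01 to 23.04). The next classes were LP-like at 2.39 CPM (0.878 to 5.21) and DF-like at 1.37 CPM (0.166 to 4.96), and no UMI was found in EP-like or BA-like cells. Since N-like cells hold Eya2 at this level, their share of cells is no background for it. DF-like cells, taken as a lower reference after these values were seen, had a UMI in 0.418% of cells. They are shallower, at a median of 1735 UMIs beside 3307 in EM-like, 5371 in LM-like and 3079 in N-like cells, so shares are not compared at equal depth. On Smart-seq2 the gene was found at 10 counts or more in 24.7% of LM-like, 22.4% of EM-like, 20.3% of NP-like and 10.7% of N-like cells and in 0.820% of DF-like cells.

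Eya3, a member long known to be widely expressed, was above 0 in every class on both platforms. Its 10x levels ran from 4.12 CPM in DF-like cells (1.51 to 8.97) to 18.8 CPM in NP-like cells (6.91 to 40.996), with most intervals overlapping. Its Smart-seq2 levels ran from 12.4 CPM in 15 PE-like cells to 66.1 CPM in EP-like cells. At 10 counts or more it was found in 56.5% of EP-like, 49.1% of EM-like, 42.6% of DF-like and 20.1% of N-like cells. In 14 BA-like Smart-seq2 cells of E16.5 it stood at 43.8 CPM and was above 0 in 92.9% of cells.

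Eya4, a coactivator known for deafness and heart muscle disease when mutated, had its highest levels in the muscle classes and in early progenitors. EM-like cells held 54.1, 46.7 and 42.7 CPM on 10x and 91.2, 53.96 and 44.04 CPM on Smart-seq2. LM-like cells held 35.4, 37.2 and 60.3 CPM on 10x and 31.6 and 28.8 CPM on Smart-seq2. EP-like cells held 23.4 CPM on 10x and 48.04 CPM on Smart-seq2, so the 2 platforms placed that class differently against LM-like cells. The EP-like sums are of E12.5 and the LM-like Smart-seq2 sums of later days only, so class and day cannot be told apart in that order. NP-like cells of E12.5 held 23.2 CPM on 10x (95% Poisson interval 8.53 to 50.6), close to the EP-like value, and 8.31 CPM on Smart-seq2. On 10x 18.4% of EM-like cells had a UMI (exact 95% interval 15.2 to 21.98, median 3307 UMIs) and 17.7% of LM-like cells (12.1 to 24.6, median 5371), beside 2.18% of N-like cells (1.09 to 3.87, median 3079). At 10 counts or more on Smart-seq2 the shares were 54.7% of EM-like, 46.6% of LM-like, 24.2% of EP-like, 16.9% of NP-like and 0.935% of N-like cells. Thinned to 1000 UMIs, 4.84% of EM-like, 2.55% of LM-like, 2.93% of EP-like and 0.647% of N-like cells held a UMI of it.

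**Figure D2:**
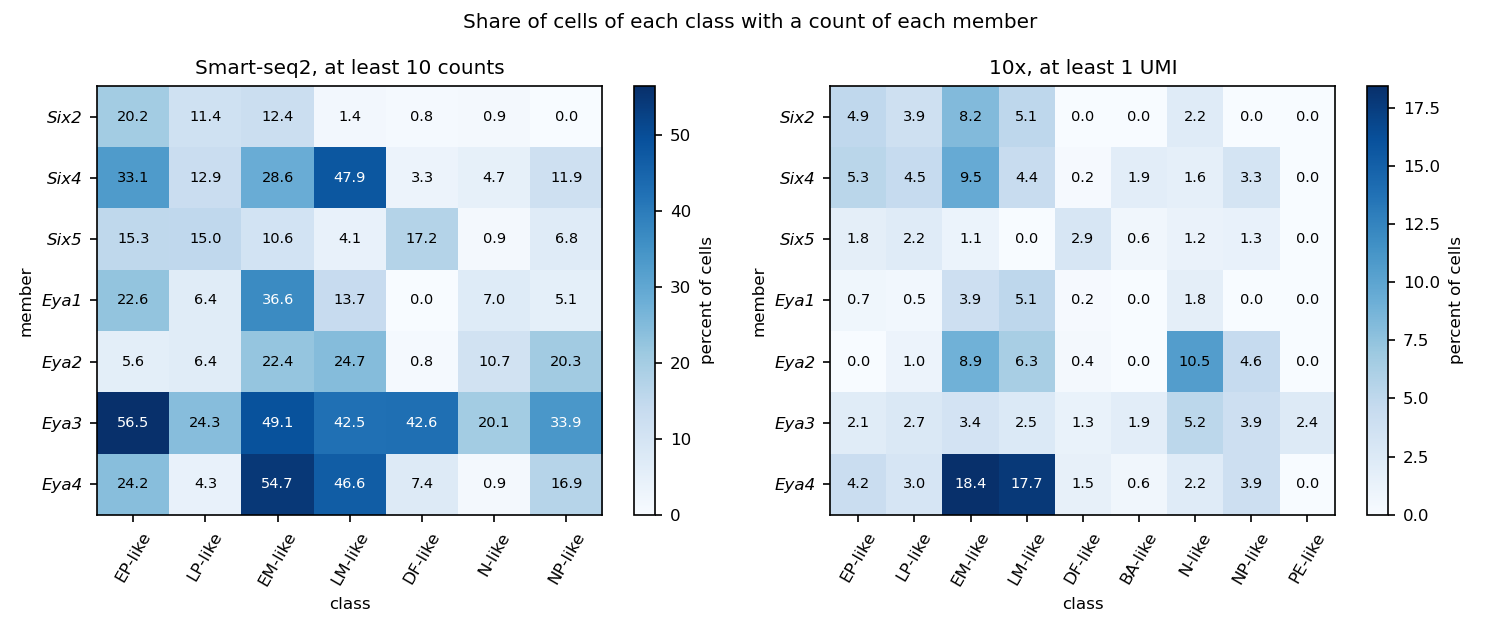
Percent of cells of each class (columns) with each member (rows), at 10 counts or more in Smart-seq2 cells on the left and at 1 UMI or more in 10x cells on the right, each on its own colour scale. BA-like and PE-like cells, with 15 cells each on Smart-seq2, are left out on the left. The darkest squares among the classes shown are Eya3 in EP-like cells (56.5%) and Eya4 in EM-like cells (54.7%) on Smart-seq2 and Eya4 in EM-like (18.4%) and LM-like cells (17.7%) on 10x.

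Early muscle was compared with the late progenitors of the same pools to ask which members differ between these 2 fates. Eya4, Eya2 and Eya1 were higher in EM-like cells, and Eya3, Six2, Six4 and Six5 did not pass the test. For Eya4 the EM-like sums of the 4 shared pools were 46.7 and 42.7 CPM on 10x and 53.96 and 44.04 CPM on Smart-seq2, beside LP-like sums of 8.48 and 2.62 and of 9.06 and 0.286 CPM. Every EM-like sum lay above every LP-like sum. Within the E14.5 Smart-seq2 pool the sequencing batches parted. In batch 4 LP-like cells held 65.9 CPM (10 cells, 62.1% of it from 1 cell) and EM-like cells 42.3 CPM (35 cells). In batch 3 LP-like cells held 2.61 CPM (40 cells) and EM-like cells 61.5 CPM (20 cells). With edgeR and the pool as a block, Eya4 rose by 3.92 on the log2 scale (SE 0.77, adjusted p = 0.00288). The fitted size depends on the low LP-like sums, and without the Smart-seq2 pool of E16.5, where the LP-like sum was 0.286 CPM, it was 2.77.

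Eya2 stood at 18.005 and 21.3 CPM in EM-like cells on 10x and at 24.5 and 19.3 CPM on Smart-seq2, beside 2.36 and 2.62 and 6.42 and 6.36 CPM in LP-like cells. The classes did not overlap, and the difference was 2.10 (SE 0.43, edgeR adjusted p = 0.00349). The LP-like sum of E14.5 on Smart-seq2 came from 1 cell of 50.

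Eya1 stood at 9.00 and 0 CPM in EM-like cells on 10x and at 34.6 and 18.5 CPM on Smart-seq2, beside 0.942 and 2.62 and 11.9 and 3.37 CPM in LP-like cells. It was higher in EM-like cells in 3 of 4 pools and lower on 10x at E16.5, where the EM-like sum held no UMI and 3 UMIs would be 10.7 CPM. The fitted difference was 2.04 (SE 0.56, edgeR adjusted p = 0.0170), and without the 10x pool of E14.5 the adjusted p was 0.0836. With the 2 Smart-seq2 pools alone no member passed.

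These 3 of 7 members called higher compare with 15.8% of the 12865 genes tested, among 35.9% called in either direction. The median difference of the 7 members was 0.75, beside -0.11 over all genes tested. Six4 had 0.75 (SE 0.39, adjusted p = 0.163), Eya3 0.69 (adjusted p = 0.278), Six2 0.33 (adjusted p = 0.713) and Six5 -0.69 (adjusted p = 0.391), all by edgeR. Without the E14.5 Smart-seq2 pool Six4 passed with 1.26 (adjusted p = 0.0150), and without the 10x pool of E16.5 Eya3 passed with 0.97 (adjusted p = 0.0470). The EM marker list served to name the EM-like clusters, so its higher level in them is no separate observation. Its 8 genes summed to 236.5 and 458.4 CPM in the 10x sums of LP-like cells and to 524.1 and 736 CPM on Smart-seq2. The EM-like sums of the same pools held 1299.7 and 1372 CPM and 3028 and 3310 CPM. The part of EM marker RNA in the LP-like levels of the members was not tested, and the muscle regulator Myod1 stood at 1.41 and 2.62 CPM in LP-like 10x sums and at 0 and 0.0561 CPM on Smart-seq2. Among the context genes 8 of 16 tested were higher and 3 lower, with both Pax partners (Pax3 and Pax7) and all 3 tested myogenic regulatory factors higher. Sobp, listed among the cofactors, fell by 1.93 (SE 0.41, edgeR adjusted p = 0.00450).

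**Figure D3:**
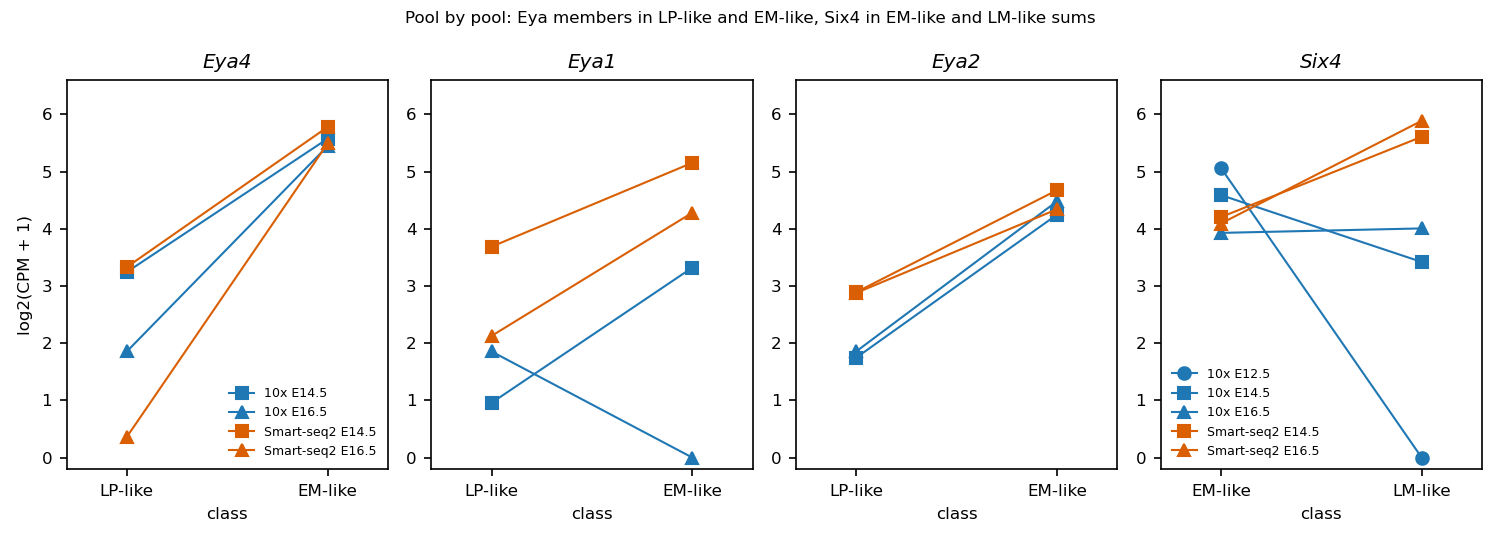
Level, as log2(CPM + 1), of Eya4, Eya1 and Eya2 in LP-like and EM-like sums and of Six4 in EM-like and LM-like sums, with a line for each pool (blue 10x, orange Smart-seq2). The lines of Eya4 and Eya2 point up in 4 of 4 pools and those of Eya1 in 3 of 4. The Six4 lines point up in both Smart-seq2 pools and, by only 0.08, in the 10x pool of E16.5. They point down in the 10x pools of E12.5 and E14.5, and the line of E12.5, from 32.5 to 0 CPM, is the steepest. That 0 is a sum of 34 LM-like cells without a UMI, so the size of the drop is not resolved.

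Early muscle and early progenitors share only the 2 pools of E12.5, which leaves 1 residual degree of freedom. The p-values of this fit therefore lean on the spread borrowed from other genes. The same 3 Eya members were higher in EM-like cells, and Eya3, Six2, Six4 and Six5 did not pass. Eya2 stood at 30.3 CPM on 10x and 32.01 CPM on Smart-seq2, beside 0 and 3.62 CPM in EP-like cells, a difference of 3.67 (SE 0.74, edgeR adjusted p = 0.000736) whose size depends on the prior count because the 10x sum of EP-like cells was 0. Eya1 stood at 10.8 and 134.99 CPM beside 3.90 and 41.3 CPM, a difference of 1.86 (SE 0.44, edgeR adjusted p = 0.00484). Eya4 stood at 54.1 and 91.2 CPM beside 23.4 and 48.04 CPM, a difference of 1.2 (SE 0.37, edgeR adjusted p = 0.0410). In each of these genes both pools pointed the same way. The Smart-seq2 sum of 47 EM-like cells mixes sequencing batches. Its 40 cells of batch 5 held 79.7 CPM of Eya2, 102.6 CPM of Eya1 and 89.8 CPM of Eya4. The few cells of other batches thus weigh heavily in the Eya2 sum of 32.01 CPM.

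The 3 of 7 called higher compare with 3.99% of 12532 genes tested, among 7.60% called in either direction. The members' median difference was 0.26, beside 0.02 over all genes. Six2 had -0.46, Six4 0.26, Eya3 0.06 and Six5 -1.67 (SE 0.86, edgeR adjusted p = 0.301). DESeq2 called Eya2 and not the other two, and at a clustering resolution of 1.2 none of the 3 was called, where the Eya2 difference was 1.48 (adjusted p = 0.338). In the same comparison 6 of 17 tested context genes were higher and 3 lower, and the 3 tested myogenic regulatory factors differed by more than any member: Myog by 6.31, Myf5 by 6.52 and Myod1 by 5.68.

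Late against early muscle asks whether the members change while the contractile program comes on. None of the 5 members tested passed. Eya4 had -0.34 (95% interval -0.86 to 0.19), Eya2 -0.13 (-0.96 to 0.71), Eya1 -0.01 (-1.10 to 1.07), Eya3 -0.24 (-1.29 to 0.81) and Six4 0.78 (-0.28 to 1.84), while Six2 and Six5 did not pass the filter on low counts. No member had an unadjusted p under 0.05, DESeq2 called 0, and 25.5% of 8053 genes were called. The members' median was -0.13 beside 0.07 over all genes. A p that misses the threshold does not show that the levels were equal, and the intervals of the Eya members reach from -1.29 to 1.07.

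The 10 context genes tested in this comparison all passed, 8 higher and 2 lower. Pax7 fell by 4.21 (SE 0.91) and Myf5 by 5.29 (SE 0.34), while Myog rose by 3.63 (SE 0.20) and Myod1 by 0.70 (SE 0.17), with edgeR adjusted p between 4.24e-11 and 0.00425. Of the fast muscle program Atp2a1 rose by 5.14, Tnnt3 by 4.23, Tnni2 by 2.84, Sox6 by 2.41 and Eno3 by 2.11. Whether the context genes and the members differed from each other was not tested.

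Six4 pointed different ways in the pools of this comparison, up on Smart-seq2 and down in the 10x pools of E12.5 and E14.5. Both Smart-seq2 pools had it higher in LM-like cells, at 47.8 and 58.2 CPM beside 17.4 and 16.05 CPM, and on 10x it was 0, 9.70 and 15.1 CPM beside 32.5, 23.1 and 14.2 CPM. The 10x LM-like sums of E12.5 and E16.5 are of 34 and 33 cells, so their levels are not well resolved. Smart-seq2 has no LM-like sum of E12.5 to set beside the 0. A term for class by platform, added after the platforms were seen to differ, gave 3.39 (SE 0.90, unadjusted p = 0.000607, edgeR adjusted p = 0.103), and 0.404% of 10154 genes were called for that term. By sequencing batch the LM-like Smart-seq2 level was 57.8 CPM in 14 cells of batch 3, 26.7 CPM in 18 cells of batch 4 and 58.2 CPM in 27 cells of batch 6, beside 17.4, 17.5 and 16.05 CPM in EM-like cells of the same batches. The most any 1 cell gave to these sums was 49.4%.

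**Figure D4:**
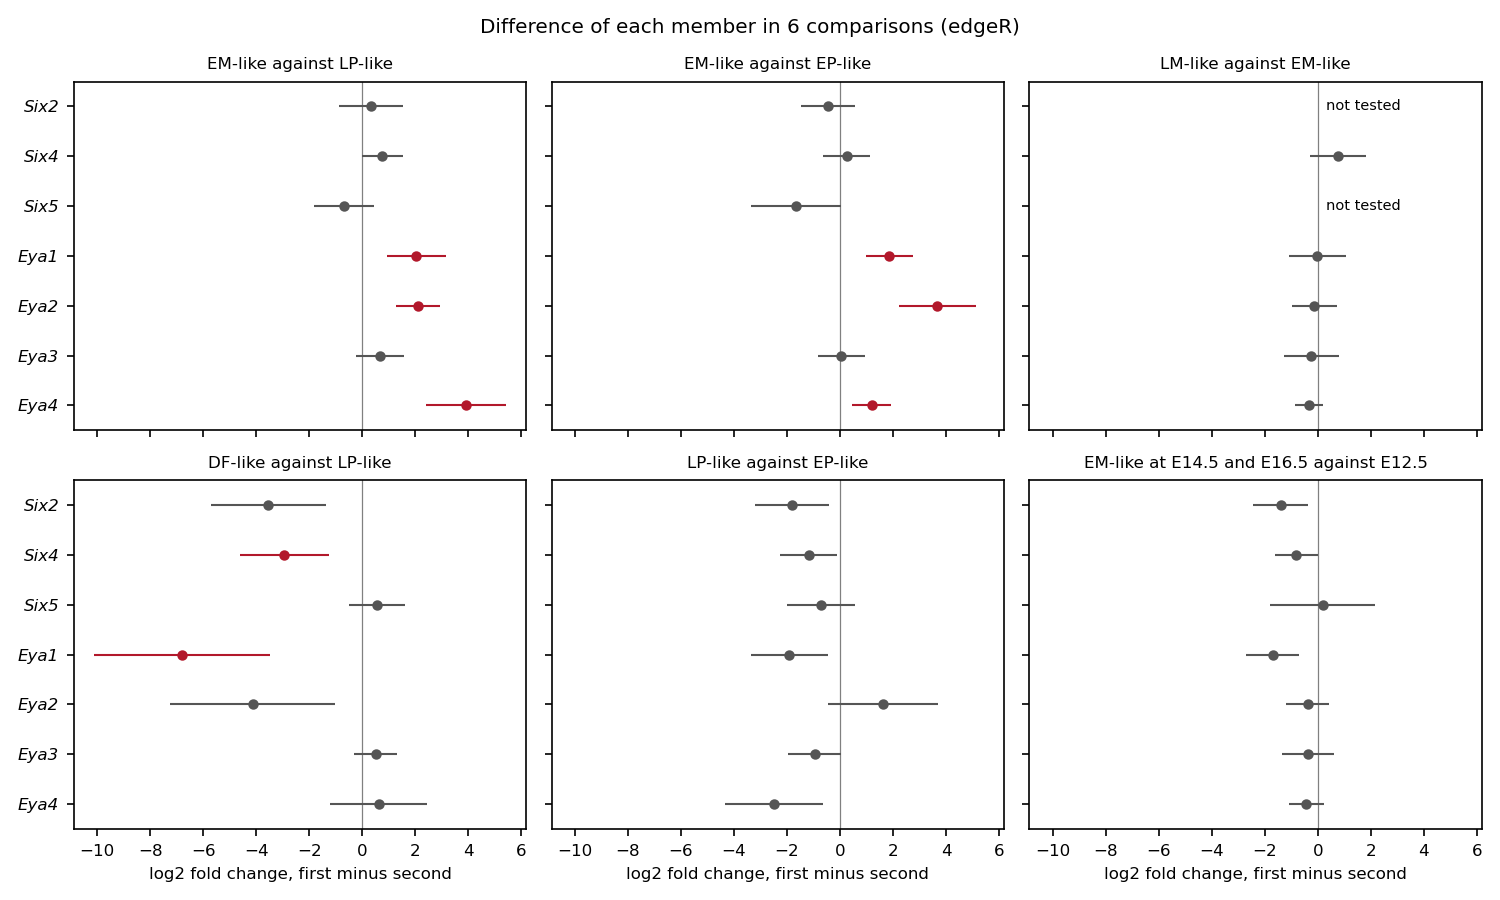
Fitted log2 fold change of each member (first class minus second) in 6 comparisons by edgeR, with bars for 95% intervals and red marks for an adjusted p under 0.05. Red marks stand for Eya1, Eya2 and Eya4 in EM-like against LP-like and EM-like against EP-like cells and for Six4 and Eya1 in DF-like against LP-like cells, and Six2 and Six5 were not tested in LM-like against EM-like cells.

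Dermal fibroblasts were compared with late progenitors in the 4 pools of E14.5 and E16.5. Eya1 and Six4 were lower in DF-like cells, and no member was higher. Eya1 stood at 1.00 and 0 CPM on 10x and 0.0317 and 0.0153 CPM on Smart-seq2 in DF-like cells, beside 0.942 and 2.62 and 11.9 and 3.37 CPM in LP-like cells. It was lower in 3 of 4 pools, and the fitted difference of -6.79 (SE 1.69, edgeR adjusted p = 0.0203) depends on the prior count, because each of the 4 DF-like sums holds at most 2 counts. Six4 stood at 1.00 and 0 CPM on 10x and 0.926 and 3.41 CPM on Smart-seq2, beside 14.1 and 5.24 and 19.8 and 5.40 CPM. It was lower in 4 of 4 pools with no overlap, by 2.95 on the log2 scale as fitted (-2.95, SE 0.85, edgeR adjusted p = 0.0425).

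The 2 of 7 called lower compare with 7.18% of 13100 genes tested, among 13.1% called in either direction. Six2 had -3.54 (SE 1.10, adjusted p = 0.0569) and Eya2 -4.13 (SE 1.59, adjusted p = 0.120) by edgeR, both lower in 4 of 4 pools, and DESeq2 called these as well as the first pair. Six5 had 0.55, Eya3 0.52 and Eya4 0.62, with intervals that span 0. The members' median was -2.95 beside -0.04 over all genes. The calls were thin: without the 10x pool of E16.5 the adjusted p of Eya1 was 0.0808 and neither gene passed, and Six4 was lost in 6 of 14 alternatives. Of 14 context genes tested 1 fell, Sobp by 1.95, and none rose. The EM marker list, which was lower as well, summed to 47.98 to 115.6 CPM in DF-like sums against 236.5 to 736 CPM in LP-like sums, and its part in the result was not tested.

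Late and early progenitors share no pool, so class and day cannot be told apart in their comparison, which used platform as a term over 6 sums. No member passed, against 5.58% of 14049 genes. Eya4 had -2.50 (SE 0.95, edgeR adjusted p = 0.155), Eya1 -1.91 (SE 0.74, adjusted p = 0.167) and Six2 -1.81 (SE 0.71, adjusted p = 0.17), the 3 members with an unadjusted p under 0.05, and DESeq2 called 0. The median of the 7 was -1.19 beside 0.11 over all genes. Eya2 was the one member with a positive value, 1.63 (SE 1.06). Eya4 and Six2 passed without the Smart-seq2 pool of E16.5, Eya4 without that of E14.5 and with Smart-seq2 batches apart, and Eya1 and Eya4 at a clustering resolution of 1.2. The LP-like Eya4 level on Smart-seq2 differed by sequencing batch, with 2.61 CPM in 40 cells of batch 3 and 65.9 CPM in 10 cells of batch 4, of which 62.1% came from 1 cell. Of 18 context genes tested Pax3 fell by 5.01 (SE 1.01, edgeR adjusted p = 0.0135) and the cofactor Sobp rose by 2.20 (adjusted p = 0.0230).

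Within EM-like cells, the later 2 days were compared with E12.5 over 6 sums with platform as a term. No member passed, against 3.01% of 12471 genes, and DESeq2 called 0. Eya1 had -1.71 (SE 0.52, unadjusted p = 0.00447, edgeR adjusted p = 0.0909) and Six2 -1.40 (SE 0.53, unadjusted p = 0.0185, adjusted p = 0.187), the 2 members with an unadjusted p under 0.05. Eya1 passed without the E14.5 Smart-seq2 pool (-1.99, adjusted p = 0.0168) and without that of E16.5 (-1.50, adjusted p = 0.0427). Six4 had -0.81, Eya4 -0.43, Eya2 -0.39, Eya3 -0.38 and Six5 0.18, and the median of the 7 was -0.43 beside 0.04 over all genes. Pax3 fell by 2.59 (SE 0.47, edgeR adjusted p = 0.00720) in the same fit and Tnni2, a fast muscle troponin, rose by 4.25 (SE 0.70, adjusted p = 0.00438). The E12.5 Smart-seq2 sum held 39.2 CPM of Six4 and 60.7 CPM of Eya3, while its 40 cells of batch 5 held 64.5 and 122.8 CPM. Sequencing batches of Smart-seq2 cells are nested in days, and EM-like cells of E12.5 and of the later days on Smart-seq2 came from different clusters, so neither can be told apart from the day.

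Differences between E14.5 and E16.5 in the class effect were fitted as interactions for 3 pairs of classes. For EM-like minus LP-like cells Eya4 passed, with 4.34 (SE 0.71, edgeR adjusted p = 5.65e-07), among 1.16% of 14056 genes called higher and 2.60% called in either direction. The EM-like sums were similar on both days, and the LP-like sums were 8.48 and then 2.62 CPM on 10x and 9.06 and then 0.286 CPM on Smart-seq2. Without the Smart-seq2 pool of E16.5 the value was 1.35 and did not pass. The LP-like Smart-seq2 sum of E14.5 was also uneven, with 65.9 CPM in the 10 cells of batch 4, 62.1% of it from 1 cell, and 2.61 CPM in the 40 cells of batch 3, and without that pool the value was 4.45 (adjusted p = 0.000181). It was 2.45 at a clustering resolution of 0.4 and 2.43 with the members kept in clustering, and passed in both. For LM-like minus EM-like and for DF-like minus LP-like cells 0 of 7 members passed, against 2.17% and 3.82% of genes, with 1 and 2 members at an unadjusted p under 0.05 and 0 by DESeq2. Without the 10x pool of E14.5 Eya1 and Eya3 passed in the former and Eya2 and Six4 in the latter.

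Bulk libraries of Pdgfra-/Cd36+ cells gave the members at higher depth, with 24862787 and 32947290 counts. Cd36 stood at 1510 and 1262 CPM and Fabp4, a fatty acid carrier of adipocytes, at 4576 and 3935 CPM. Eya3 stood at 22.001 and 20.4 CPM, Six4 at 6.48 and 6.65 CPM and Six5 at 5.31 and 6.19 CPM, and these values differed little between duplicates. Eya4 stood at 1.01 and 2.79 CPM, Six2 at 1.37 and 1.09 CPM, Eya1 at 0.442 and 1.34 CPM and Eya2 at 0.241 and 0 CPM. Over 15766 genes the duplicates differed by more than counting error (chi-square over degrees of freedom 43.6). In BA-like 10x cells Eya3 had 4 UMIs, or 7.74 CPM (2.11 to 19.8), Six4 3, and Eya4 and Six5 1 each, and Six2, Eya1 and Eya2 had none, which allows a level of up to 5.81 CPM at 3 counts.

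Smart-seq2 cells were read for members found together. In EM-like cells Six4 and Eya4 were both above 0 in 49.1% of cells, beside a product of the 2 shares of 47.4%. Eya1 and Eya4 were both found in 38.5%, beside a product of 33.9%, and after thinning in 30.3% beside 25.6%. At least 1 member of each family was found in 77.6% of EM-like, 72.6% of EP-like and 68.5% of LM-like cells, in 66.1% of NP-like cells, and in 45.8% of N-like, 43.6% of LP-like and 42.6% of DF-like cells. These shares count every value above 0, the small values of Six2 and Six4 included. Over all pairs and classes the share with both was above the product in 58.5% of cases and, after thinning, in 45.6%. Depth is shared by the genes of a cell, so these values are a description.

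Over 29 class sums, with the platform mean subtracted, the members most alike were Six4 and Eya4 (Pearson r = 0.715), followed by Eya1 and Eya2 (0.581) and Eya1 and Eya4 (0.575), and the least alike were Eya2 and Eya3 (-0.313). Among 7512 other genes, the likest pattern to Eya4 was that of Nsun2 (0.846), to Six4 that of Ruvbl1 (0.812), to Six5 that of Bmp4 (0.8289) and to Eya2 that of Hspa4l (0.827), with Prox1 next (0.823). For Eya1 it was Erbb3 (0.7099), for Eya3 Osbpl11 (0.688) and for Six2 Peg10 (0.712), with Pax7 among the next (0.633). The sums share pools, depth and cells of common lineages, and no p is given.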

How the data were processed

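The single-cell tables deposited by the authors hold unique molecular identifier counts per gene and 10x cell from Cell Ranger, and expected counts per gene and Smart-seq2 cell, estimated with kallisto 0.44.0 by the authors. The bulk table deposited by the authors holds read counts, of which 2 of 18 columns could be matched to 1 sample and were used, while 16 were not. None was normalized, and mm10 is the build named in the submitters' processing notes.

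Cells over 8% mitochondrial counts were removed. Platforms were joined with Seurat 5.3.0 (2000 variable genes, 30 components, resolution 0.8, 16 clusters) in R 4.3.3, without the members and context genes. A cluster was named for the marker list with the largest mean z-score, at least 0.4, with 3 markers in 5% of its cells or more. Doublets called with Scrublet in scanpy 1.11.5 were kept. Expected counts, rounded, and UMIs were summed per class and pool, for sums of at least 20 cells, and compared with edgeR 4.0.16 (filter on low counts, TMM, quasi-likelihood test, Benjamini-Hochberg adjusted p under 0.05 over all genes tested). Where classes shared pools, the pool entered the fit as a block. Tested on simulated data, the procedure recovered 85% of genes changed by 2 on the log2 scale for LM-like against EM-like sums, 70% for EM-like against LP-like, 67% for DF-like against LP-like, 50% for EM-like against EP-like, 41% for EM-like cells by day and 33% for LP-like against EP-like, and for changes of 1 it recovered 43%, 26%, 30%, 8%, 5% and 0% in the same order. For the interactions it recovered 27% to 32% at 2 and 1% to 5% at 1. CPM are scaled to all counts of the cells summed. Poisson and Clopper-Pearson 95% intervals and the limit of 3 counts cover counting error only. Alternatives were DESeq2 1.42.0, other size factors, filters, resolutions and cell limits, platforms or batches apart, and each pool left out. The members are each described in every comparison, and the members, context genes, marker lists and tests were chosen with earlier results of these data known.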

Additional observations from a re-analysis of the deposited data

Results flagged for a closer look

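The difference of Eya4 between EM-like and LP-like cells was larger at E16.5 than at E14.5, by 4.34 on the log2 scale in a test of the interaction. The LP-like Smart-seq2 sum of E16.5, at 0.286 CPM, moves with it, and without that pool the value was 1.35. In the LP-like Smart-seq2 sum of E14.5 1 cell held 62.1% of the counts of batch 4 (65.9 CPM in 10 cells, beside 2.61 CPM in 40 cells of batch 3), and without that pool the value was 4.45.

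In 2 of 21 sets of pools examined for 1 value far from the rest, the lowest stood apart. For Eya2 the LM-like against EM-like log2 ratio of the 10x pool of E16.5 was -4.48, from 0 and 21.3 CPM, while the other pools ran from -0.74 to 0.03. Only 33 LM-like cells are in that pool, where 3 counts would be 45.2 CPM. For Eya3 the EM-like against LP-like log2 ratio of the same library was -3.82, from 0 and 13.1 CPM, while the other pools ran from 0.43 to 1.19. In that EM-like sum 3 counts would be 10.7 CPM, so the size of the ratio is not resolved. Chance sets about 1 in 20 such sets apart.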

How the results depend on the processing

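Of 916 values of the members under alternatives, 847 kept their direction and their side of the threshold, 20 lost a call, 16 gained one and 33 changed sign, none of the latter a called value. The 20 lost calls fell among 9 calls. Eya2 and Eya4 in EM-like against LP-like cells were lost only with Smart-seq2 pools alone, and Eya1 there also without the 10x pool of E14.5. Eya1 there did not reach the test with 10x pools only or without the E14.5 Smart-seq2 pool, because its counts were under the filter, and the same held for Eya1 and Six4 in DF-like against LP-like cells without either Smart-seq2 pool or with 10x pools only. In EM-like against EP-like cells Eya1 was lost with DESeq2, at resolution 1.2 and with batches apart, Eya4 with DESeq2, at resolution 1.2 and with no mitochondrial limit, and Eya2 at resolution 1.2. Six4 in DF-like against LP-like cells had adjusted p from 0.0558 to 0.419 where it was lost. The 16 gained calls were Eya2 and Six2 in DF-like against LP-like cells with DESeq2, Eya3 and Six4 in EM-like against LP-like cells, Eya1, Six2 and Eya4 (4 alternatives) in LP-like against EP-like cells, Eya1 by day (2 alternatives) and, without the 10x pool of E14.5, Eya1 and Eya3 in the interaction of LM-like with EM-like and Eya2 and Six4 in that of DF-like with LP-like. At resolution 1.2, 90.6% of cells kept their class, and 97.9% to 98.8% in the other clusterings. The causes were not tested.

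The share of genes tested that were called is given for each setting whose number called moved by over 1.5 times, and for pools left out as a range. With 10x pools only it was 19.6% for LM-like against EM-like (25.5% with all pools), 10.7% for DF-like against LP-like (13.1%), 39.3% for EM-like against LP-like (35.9% of a longer list), 3.16% for LP-like against EP-like (5.58%) and 0.657% for EM-like cells by day (3.01%), and with Smart-seq2 pools only 8.65%, 1.87%, 12.4%, 0.268% and 0%. With Smart-seq2 batches apart, where sums under 20 cells dropped out, it was 24.3% for LM-like against EM-like, 13.4% for EM-like against EP-like (7.60%) and 1.51% by day. The first of these is the same fit as without the E14.5 Smart-seq2 pool, whose LM-like sums were under 20 cells in both batches. DESeq2 gave 4.81% for EM-like against EP-like, 10.5% for LP-like against EP-like, 5.32% by day, and 0.0881%, 0.924% and 0.242% for the interactions of LM-like with EM-like (2.17%), DF-like with LP-like (3.82%) and EM-like with LP-like (2.60%). Resolution 1.2 gave 9.80% for LP-like against EP-like. Leaving out 1 pool gave 15.9% to 24.3% for LM-like against EM-like, 7.34% to 17.8% for DF-like against LP-like, 25.7% to 45.4% for EM-like against LP-like, 0% to 13.5% for LP-like against EP-like, 0% to 9.10% by day, and 0.203% to 10.8%, 0.104% to 8.89% and 0.0169% to 7.27% for the interactions. The fits at 0% were by edgeR, without the Smart-seq2 pool of E12.5 for LP-like against EP-like cells and by day, and with Smart-seq2 alone by day, and had 5.52%, 3.81% and 10.4% of genes at an unadjusted p under 0.05.

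Uncalled values changed sign as follows. Eya1 in LM-like against EM-like cells was 0.0019 with DESeq2 and 0.024 with no filter, and Eya2 there 0.0071 with doublets removed and 0.14 with Smart-seq2 pools only. Eya4 in DF-like against LP-like cells was -0.54 at resolution 0.4, -0.54 with the members kept in clustering and -0.51 with other processor arithmetic (an alternative added after seeing the data), and -0.29 to 1.03 without 1 pool. At resolution 1.2 Eya3 was -0.027 in EM-like against EP-like and Eya2 -0.18 in LP-like against EP-like cells. By day Eya2 was 0.047 at resolution 1.2, 0.047 with the members kept, 0.072 with no mitochondrial limit and 0.062 with other arithmetic, and Six5 -0.46 with batches apart and -0.15 to 0.56 without 1 pool. Six2 in EM-like against LP-like cells was -0.29 to 0.35 without 1 pool. The interaction of Eya1 in EM-like and LP-like cells was -0.74 with DESeq2. Without 1 pool the interactions were -11.88 to 0.32 for Eya2, -0.19 to 0.79 for Eya4, -0.74 to 2.99 for Six4 and -0.084 to 8.45 for Six2 in LM-like and EM-like cells. In DF-like and LP-like cells they were -2.55 to 0.79 for Eya1, -2.33 to 0.77 for Eya3, -9.46 to 3.64 for Eya4, -6.33 to 3.63 for Six4 and -7.45 to 6.92 for Six2. In EM-like and LP-like cells they were -11.69 to 0.62 for Eya1 and -1.37 to 0.62 for Eya2.

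Classes that share pools were paired by pool, as the block in every such fit. No paired analysis was possible by replicate number because the pools carry none and the bulk groups with numbered samples could not be matched to columns. The planned bulk comparisons and their alternatives were not run for that reason. Depth limits the 10x values, and 3 UMIs equal 45.2 CPM in the LM-like sum of E16.5.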

Other observations

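Sobp, listed among the cofactors, fell by 1.93 in EM-like against LP-like cells, where Eya1, Eya2 and Eya4 rose, and by 1.95 in DF-like against LP-like cells, where Eya1 fell (edgeR adjusted p = 0.00450 and 0.00542). It rose by 2.20 in LP-like against EP-like cells (adjusted p = 0.0230), where no Eya member passed, and that call was lost in 6 alternatives, at adjusted p from 0.0907 to 0.851.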
